A study of Homo sapiens with 6 samples.

Results

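Tissue factor and the urokinase system were read in 143B cells, a human osteosarcoma line, through 9 genes: PLAU, PLAUR, PLAT, SERPINE2, SERPINB2, F3, TFPI, TFPI2 and THBD. They were chosen by gene name for their roles in plasminogen activation and in the start of clotting, with earlier results of these data known. All 9 were found among the 58825 genes of the deposited table. Of these genes F3, which encodes tissue factor, rose 1.45-fold in cells given a SIGLEC15 siRNA relative to cells given a control siRNA, and the other 8 did not pass the test, where 4.65% of all tested genes passed. The F3 call was lost in 9 of 14 alternative settings, among them leaving out any 1 of the 6 libraries. PLAU, which encodes urokinase, was by far the most abundant of them and had 98.0 ± 3.06 FPKM (fragments per kilobase of transcript, scaled to the library's mapped fragments) in the SIGLEC15 siRNA group and 97.6 ± 0.729 FPKM in the control siRNA group (SD, n = 3 each).

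The study asked how the transcriptome of 143B cells differs after a siRNA directed at SIGLEC15. One group was 143B cells transfected with 80 nmol/L of the SIGLEC15 siRNA and the other 143B cells transfected with 80 nmol/L of a negative control siRNA, both harvested after 36 h in medium with serum, with 3 poly(A) RNA-seq libraries in each group. Both groups had the same transfection reagent, so no untransfected cells enter the comparison, and all libraries are from a single tumour line. The sources used here give neither the siRNA sequences nor whether a group's 3 libraries were separate cultures, so p-values measure only library-to-library spread and that spread may be technical.

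Plasmin is the protease that dissolves fibrin and also cleaves matrix proteins, and it is made from plasminogen by urokinase or tissue plasminogen activator. Urokinase is held at the cell surface by its receptor, and serpins trap both activators by forming covalent complexes with them. Tissue factor is the cell surface receptor for clotting factor VII and starts the extrinsic pathway of coagulation. TFPI blocks the tissue factor complex, and thrombomodulin turns thrombin from a clotting enzyme into an activator of protein C. Many tumour cells express urokinase, its receptor and tissue factor.

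Libraries held between 57966691 and 67655254 gene counts, and 18910 genes entered the test. In the first principal component of log2 CPM (counts scaled to library size), 26.8% of the variance, the groups lay apart. On the second, 20.2%, SIGLEC15 siRNA replicate 1 (35.31) and control siRNA replicate 3 (56.32) stood away from the remaining 4 libraries (-27.15 to -20.36). SIGLEC15, the targeted gene, had 12, 8 and 6 counts in SIGLEC15 siRNA replicates 1, 2 and 3, and 12, 10 and 22 counts in control siRNA replicates 1, 2 and 3. Its difference did not pass the test (edgeR log2 fold change -0.82, SE 0.598, Benjamini-Hochberg adjusted p = 0.529), so a lower level of the target was not shown at this depth. Of 8 measured markers of osteoblasts and osteosarcoma, 4 reached 1 FPKM in at least 1 library, VIM, SPARC, COL1A1 and RUNX2, while ALPL, IBSP, COL1A2 and BGLAP stayed under 0.206 FPKM. SPARC, COL1A1 and VIM reached 1 FPKM in both groups and lay apart between them, where 26.6% of all tested genes lay apart in CPM. With the SIGLEC15 siRNA SPARC, COL1A1 and VIM averaged 109, 1.78 and 437 FPKM, against 62.6, 1.10 and 482 FPKM with the control siRNA. RUNX2 reached 1 FPKM with the SIGLEC15 siRNA alone, so it entered through the group where it was higher. It lay between 0.373 and 2.03 FPKM there and between 0.265 and 0.365 FPKM with the control siRNA. The part of these markers in the values of the 9 genes was not tested. Of 6 endothelial markers 0 reached 1 FPKM, and their summed level lay between 0.0754 and 0.182 FPKM in the SIGLEC15 siRNA group and between 0.0732 and 0.174 FPKM in the control siRNA group. Of 6 monocyte and macrophage markers CD68 alone reached 1 FPKM, with PTPRC and CD163 at the table's floor of 0.0001 in every library. The epithelial keratins KRT8 and KRT18 were abundant, while KRT19 reached no more than 0.0229 FPKM in any library. KRT18 averaged 203 FPKM in the SIGLEC15 siRNA group and 197 FPKM in the control siRNA group. EPCAM averaged 3.41 FPKM in the SIGLEC15 siRNA group and 4.10 FPKM in the control siRNA group, with no overlap, and CDH1 was at the floor.

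Levels of the 9 genes spanned nearly the whole range of expressed genes. By mean control level PLAU stood above 98.1% of the tested genes, SERPINE2 above 90.4%, PLAUR above 86.4%, TFPI2 above 83.2%, F3 above 74.9%, PLAT above 62.8%, TFPI above 55.5%, THBD above 31.2% and SERPINB2 above 11.6%. PLAU alone made up 56.4% of the summed FPKM of the 9 genes in the SIGLEC15 siRNA group and 60.1% in the control siRNA group. The order of the levels differed between the groups at a pair of places. TFPI lay above PLAT in the SIGLEC15 siRNA libraries, with TFPI between 3.64 and 3.93 FPKM and PLAT between 3.07 and 3.38 FPKM, and below it in the control siRNA libraries, with TFPI between 2.84 and 3.20 FPKM and PLAT between 3.96 and 4.53 FPKM. TFPI2 averaged more than PLAUR in the SIGLEC15 siRNA group and less in the control siRNA group, but the 2 genes' values overlapped within each group. In the SIGLEC15 siRNA group TFPI2 also overlapped SERPINE2. All other neighbours in the order were apart in both groups. FPKM is per length, so it was used for levels between genes. With each library's scale taken from PLAU, the FPKM of each of the other genes was a fixed multiple of the scaled count to within 2.26%.

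**Figure D1:**
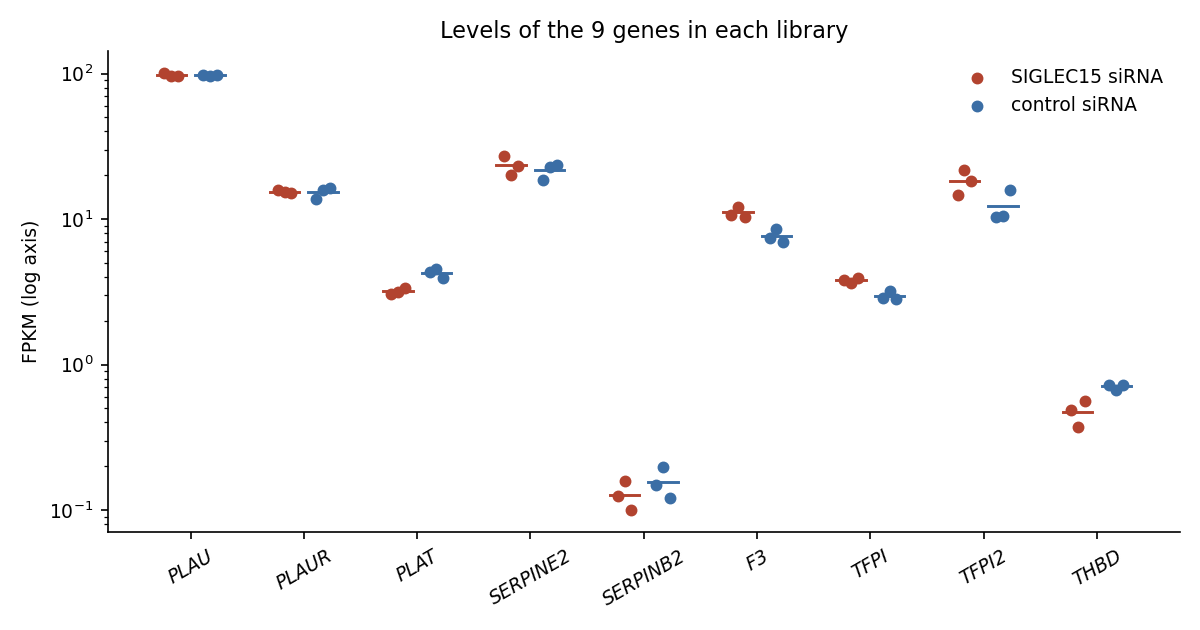
FPKM on a log axis for each of the 9 genes, with 1 point per library and a bar at the mean of 3 libraries, SIGLEC15 siRNA in red and control siRNA in blue. PLAU sits near 98 FPKM in both groups, F3 and TFPI are higher and PLAT and THBD lower in all 3 SIGLEC15 siRNA libraries than in any control siRNA library, and the other 5 genes overlap between the groups.

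Across the 9 genes, 1 passed the test as higher, F3, and 0 as lower, where 4.65% of all tested genes passed (2.22% higher and 2.43% lower; edgeR quasi-likelihood test, adjusted p under 0.05 over 18910 genes). The median log2 fold change of the 9 was 0.01, against -0.01 over all tested genes, and the median size of the change without its sign was 0.35, against 0.21. In 4 of the 9 the groups had no overlap in their libraries' values, F3 and TFPI higher and PLAT and THBD lower, where 26.6% of all tested genes showed such a gap (12.9% higher and 13.7% lower). At an unadjusted p under 0.05 there were 5 of the 9, F3, TFPI, PLAT, THBD and TFPI2, where 19.1% of all tested genes lay under it. All 9 genes passed the filter on low counts. The 9 genes were chosen with earlier results of these data known. These counts and medians are therefore not read as a difference from all tested genes.

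**Figure D2:**
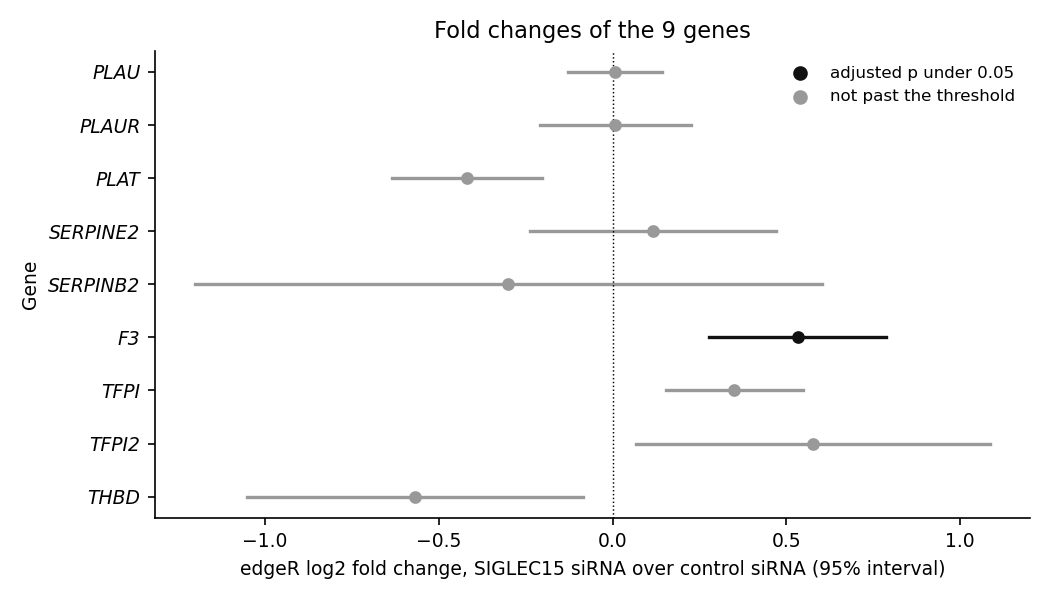
edgeR log2 fold change of each of the 9 genes, SIGLEC15 siRNA over control siRNA, with its 95% interval, which is not adjusted for the number of genes; black marks an adjusted p under 0.05. F3 (0.53) is the 1 gene past the threshold; the intervals of TFPI, TFPI2, PLAT and THBD also leave out 0 before adjustment, and those of PLAU and PLAUR lie closely around it.

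PLAU and PLAT encode the plasminogen activators. PLAU (ENSG00000122861, chromosome 10, 73909177 to 73917494, plus strand, as the deposited table places it), which encodes the activator that acts mainly at cell surfaces, had 102, 96.7 and 95.9 FPKM in SIGLEC15 siRNA replicates 1, 2 and 3, and 97.6, 96.8 and 98.3 FPKM in control siRNA replicates 1, 2 and 3. The groups overlapped, with the highest and the lowest value both in the SIGLEC15 siRNA group. The edgeR log2 fold change was 0.01 (SE 0.0572, adjusted p = 0.97), and its 95% interval ran from an 8.60% lower to a 10.4% higher level. PLAU rests on 19580 to 23884 counts per library. A gene on the opposite strand, C10orf55, shares exon sequence with PLAU but had 761 counts in the 6 libraries together. No source used here says whether the authors counted by strand.

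PLAT (ENSG00000104368, chromosome 8, 42175233 to 42207724, minus strand), which encodes tissue plasminogen activator, the fibrin-dependent enzyme used to dissolve clots, had 3.07, 3.13 and 3.38 FPKM in SIGLEC15 siRNA replicates 1, 2 and 3, and 4.33, 4.53 and 3.96 FPKM in control siRNA replicates 1, 2 and 3. All 3 SIGLEC15 siRNA libraries were below all 3 control siRNA libraries. With edgeR the log2 fold change came to -0.42 (SE 0.091; 95% interval from -0.64 to -0.20), with an unadjusted p of 0.00269 and an adjusted p of 0.0541, just short of passing. PLAT passed as lower in 4 of 14 alternatives: the DESeq2 Wald test (adjusted p = 0.000128), edgeR over genes of at least 1 FPKM (adjusted p = 0.0352), and limma-trend on log2 FPKM with 1 or 0.1 added (adjusted p = 0.0465 and 0.0434). DESeq2 called 17.1% of the 17043 genes to which it gave an adjusted p. Of the genes tested, edgeR over genes of at least 1 FPKM called 8.54%, and limma-trend 7.99% and 7.9%.

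PLAUR (ENSG00000011422, chromosome 19, 43646095 to 43670169, minus strand) encodes the receptor that anchors urokinase to the membrane. It had 15.8, 15.3 and 15.2 FPKM in SIGLEC15 siRNA replicates 1, 2 and 3, and 13.6, 15.8 and 16.5 FPKM in control siRNA replicates 1, 2 and 3. The SIGLEC15 siRNA values lay inside the control siRNA range. The edgeR log2 fold change was 0.01 (SE 0.0914, adjusted p = 0.977), with a 95% interval from a 13.5% lower to a 16.9% higher level.

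SERPINE2 and SERPINB2 encode serpins that inhibit these proteases. SERPINE2 (ENSG00000135919, chromosome 2, 223975045 to 224039290, minus strand), or protease nexin-1, which traps thrombin and urokinase, had 27.2, 20.0 and 23.1 FPKM in SIGLEC15 siRNA replicates 1, 2 and 3, and 18.5, 22.9 and 23.5 FPKM in control siRNA replicates 1, 2 and 3. The groups overlapped, with the highest value in SIGLEC15 siRNA replicate 1 and the lowest in control siRNA replicate 1. Its log2 fold change of 0.12 did not pass (SE 0.149, edgeR adjusted p = 0.752), and the 95% interval ran from a 15.3% lower to a 38.5% higher level, wider than for PLAU.

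SERPINB2 (ENSG00000197632, chromosome 18, 63871692 to 63903888, plus strand), or PAI-2, a urokinase inhibitor found largely inside cells, was close to the detection limit. It had 28, 30 and 22 counts in SIGLEC15 siRNA replicates 1, 2 and 3, and 30, 39 and 25 counts in control siRNA replicates 1, 2 and 3, or 0.128 ± 0.0294 FPKM in the SIGLEC15 siRNA group and 0.156 ± 0.0394 FPKM in the control siRNA group (SD, n = 3 each). A difference was not shown at these counts: the edgeR log2 fold change was -0.30 (SE 0.379, adjusted p = 0.745), and its 95% interval ran from a 56.5% lower to a 51.8% higher level. The log2 fold change lay between -0.46 without SIGLEC15 siRNA replicate 2 and -0.09 without control siRNA replicate 2.

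The other genes of plasminogen activation were read from a list of 21 that holds receptors, clearance receptors and inhibitors. Of these 20 were in the table and 11 entered the test. Of the 11 tested, 0 passed with edgeR, against 3 with DESeq2 and 4 at an unadjusted edgeR p under 0.05. DESeq2 called 17.1% of the genes to which it gave an adjusted p, and 19.1% of all tested genes lay under that unadjusted p. Counts this small are not read as a difference from those shares. Their median log2 fold change was 0.13, against -0.01 over all tested genes.

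ANXA2 and S100A10, which together form a plasminogen receptor at the cell surface, were the most abundant genes of that list. S100A10 had 224 ± 14.8 FPKM in the SIGLEC15 siRNA group and 178 ± 11.4 FPKM in the control siRNA group (SD, n = 3 each), with values that did not overlap and an edgeR log2 fold change of 0.33 (SE 0.0836, adjusted p = 0.0833). ANXA2 had 202 ± 28.1 FPKM in the SIGLEC15 siRNA group and 199 ± 11.7 FPKM in the control siRNA group (SD, n = 3 each; edgeR adjusted p = 0.942). S100A10 passed as higher with DESeq2 and with limma-trend under either pseudocount. VLDLR, a lipoprotein receptor that takes up complexes of proteases with serpins, had 10.9 ± 0.414 FPKM in the SIGLEC15 siRNA group and 9.82 ± 0.561 FPKM in the control siRNA group (SD, n = 3 each; edgeR adjusted p = 0.268). DESeq2 called 3 of the 11 genes, S100A10, SERPINI1 and LRPAP1, all as higher.

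Of 32 other serpin genes 10 entered the test, and 0 passed with edgeR. Beside the same shares of 17.1% and 19.1%, 2 passed with DESeq2 and 3 lay at an unadjusted edgeR p under 0.05. Their median log2 fold change was 0.19. SERPINH1, a collagen chaperone of the endoplasmic reticulum with no known inhibitor function, had 24.7 ± 1.61 FPKM in the SIGLEC15 siRNA group and 19.7 ± 1.16 FPKM in the control siRNA group (SD, n = 3 each; edgeR log2 fold change 0.32, SE 0.0793, adjusted p = 0.0767). SERPIND1, or heparin cofactor II, a thrombin inhibitor, had 6.37 ± 1.30 FPKM in the SIGLEC15 siRNA group and 5.64 ± 0.934 FPKM in the control siRNA group (SD, n = 3 each; edgeR adjusted p = 0.704). SERPINB1, an inhibitor of neutrophil proteases, had 5.30 ± 0.288 FPKM in the SIGLEC15 siRNA group and 4.56 ± 0.295 FPKM in the control siRNA group (SD, n = 3 each; edgeR adjusted p = 0.337). DESeq2 called SERPINH1 and SERPINI1, both as higher. Of the tested serpins, SERPINI1, SERPINB6 and SERPINB8 are also in the list of plasminogen activation genes. SERPIND1 and SERPINA10 are also in the list of clotting genes. The counts of the lists are therefore not separate, and SERPINI1 enters the DESeq2 count of both the serpins and the plasminogen activation genes.

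F3 (ENSG00000117525, chromosome 1, 94529173 to 94541759, minus strand) was the 1 gene of the 9 past the threshold. It had 10.7, 12.2 and 10.4 FPKM in SIGLEC15 siRNA replicates 1, 2 and 3, and 7.44, 8.59 and 6.97 FPKM in control siRNA replicates 1, 2 and 3, from 2408 to 2475 counts with the SIGLEC15 siRNA and 1485 to 1741 counts with the control siRNA. All 3 SIGLEC15 siRNA libraries were above all 3 control siRNA libraries, and the gap between the groups was close to the spread inside each. F3 was 44.6% higher, a log2 fold change of 0.53 (SE 0.107; 95% interval from 0.28 to 0.79; edgeR adjusted p = 0.0436). The direction was the same in all 14 alternatives, with log2 fold changes between 0.47 and 0.62. The call was lost in 9 of them: with no filter on low counts (adjusted p = 0.0655), with the replicate number as a block (0.132), without any 1 of the 6 libraries (0.0686 to 0.148), and without SIGLEC15 siRNA replicate 1 and control siRNA replicate 3 together (0.206). Of all genes, the settings without the F3 call called 2.18% with no filter and 0.264% with the block. They called 1.68%, 1.33% and 1.75% without control siRNA replicates 1, 2 and 3, 2.01%, 1.36% and 2.2% without SIGLEC15 siRNA replicates 1, 2 and 3, and 0.368% without both libraries. With median-of-ratios size factors, where F3 kept its call, 4.62% were called. In bulk RNA a larger share of cells with the transcript and more transcript per cell cannot be told apart. Of 852 other named genes that passed the test, TBC1D8 and TSPAN15 were the closest to F3 in log2 CPM over the 6 libraries, each gene centred on its own mean. Their root mean square differences from F3 were 0.0614 and 0.068 on the log2 scale, and their edgeR log2 fold changes were 0.49 and 0.59.

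TFPI (ENSG00000003436, chromosome 2, 187464230 to 187554492, minus strand) encodes the Kunitz-type inhibitor that shuts down tissue factor with factor VII. It had 3.78, 3.64 and 3.93 FPKM in SIGLEC15 siRNA replicates 1, 2 and 3, and 2.86, 3.20 and 2.84 FPKM in control siRNA replicates 1, 2 and 3. All SIGLEC15 siRNA libraries were above all control siRNA libraries, and both groups were tight. TFPI had a log2 fold change of 0.35 (SE 0.0832; 95% interval from 0.15 to 0.55), with an edgeR unadjusted p of 0.00427 and an adjusted p of 0.0689. TFPI passed as higher with DESeq2 (adjusted p = 0.000431) and with edgeR over genes of at least 1 FPKM (adjusted p = 0.0496), and in 0 of the other 12 alternatives. An antisense gene, AC007319.1, overlaps an exon of TFPI and had 358 counts over the 6 libraries, against 2455 to 3702 counts of TFPI in each.

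**Figure D3:**
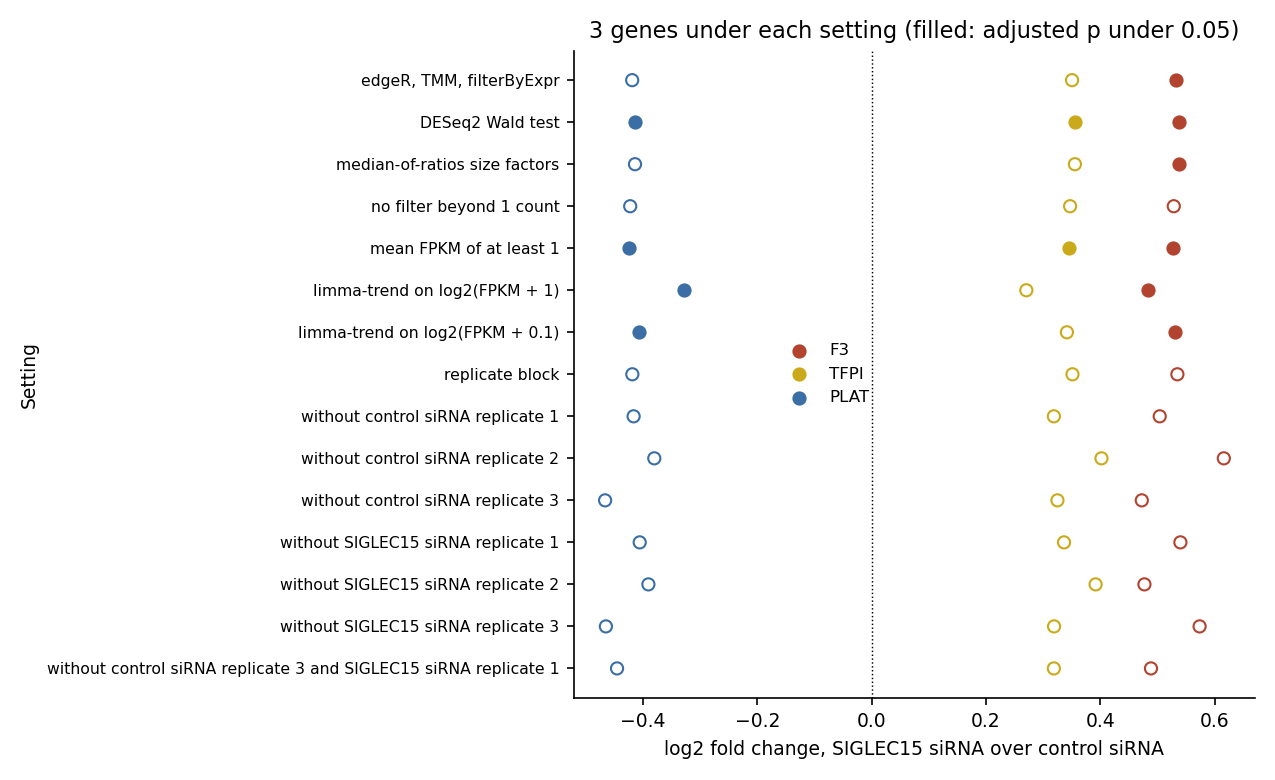
log2 fold change, SIGLEC15 siRNA over control siRNA, of F3, TFPI and PLAT under each setting of the test, with filled points where the adjusted p was under 0.05. F3 and TFPI stay higher and PLAT lower under all settings shown; F3 keeps its call in 5 of 14 alternatives, PLAT gains one in 4 and TFPI in 2.

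TFPI2 (ENSG00000105825, chromosome 7, 93885396 to 93890753, minus strand) encodes a related Kunitz-type inhibitor that is deposited in the matrix and acts on plasmin and trypsin more than on tissue factor. It had 14.7, 21.8 and 18.3 FPKM in SIGLEC15 siRNA replicates 1, 2 and 3, and 10.3, 10.5 and 15.9 FPKM in control siRNA replicates 1, 2 and 3. The groups overlapped through control siRNA replicate 3, which was above SIGLEC15 siRNA replicate 1. These are the libraries that lie apart on the second principal component, and the part of that axis in the TFPI2 values was not tested. For TFPI2 edgeR gave a log2 fold change of 0.58 with an SE of 0.214 (adjusted p = 0.206). Without both libraries, a setting added after seeing the data, it was 0.95 (adjusted p = 0.0722). These libraries hold the lowest SIGLEC15 siRNA value and the highest control siRNA value, so leaving them out had to raise the difference. Over the 14 alternatives the adjusted p ranged from 0.0186 to 0.445. DESeq2 called TFPI2 as higher (adjusted p = 0.0186), the 1 alternative of 14 that did.

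THBD (ENSG00000178726, chromosome 20, 23045633 to 23049741, minus strand), the thrombomodulin gene, is a typical endothelial gene and was weakly expressed here. It had 0.487, 0.372 and 0.564 FPKM in SIGLEC15 siRNA replicates 1, 2 and 3, and 0.723, 0.671 and 0.726 FPKM in control siRNA replicates 1, 2 and 3, from 105 to 187 counts with the SIGLEC15 siRNA and 194 to 220 counts with the control siRNA. All SIGLEC15 siRNA libraries were below all control siRNA libraries, and the SD over the mean was 20.4% with the SIGLEC15 siRNA and 4.40% with the control siRNA. With edgeR the log2 fold change came to -0.57 (SE 0.204; 95% interval from -1.05 to -0.08; adjusted p = 0.19), and THBD passed in 0 of 11 alternatives.

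DESeq2 called F3, TFPI and TFPI2 as higher, where it called 17.1% of the genes to which it gave an adjusted p. In the main edgeR test F3 alone of the 3 passed, with adjusted p = 0.0689 for TFPI and 0.206 for TFPI2. Shown for their roles and that DESeq2 call are the stretches before the starts of these 3 genes, tissue factor and its inhibitor family. They are up to 250 bases before the RefSeq start (GRCh38.p14), 5′ to 3′ on the minus strand on which all 3 genes lie, at chr1:94541760-94542009, chr2:187554493-187554685 and chr7:93890754-93891003. The TFPI stretch is shorter because the deposited table starts that gene earlier. Capitals mark matches on either strand to GGAATG, bound by TEAD factors, to TATAAA of the TATA box and to GGGCGG of the GC box. They also mark TGANTCA, the letters of AP-1, and GCGNGGGCG, the letters of EGR factors, where N is any base. An EGR match can overlap a GC box, and capitals then run together.
F3: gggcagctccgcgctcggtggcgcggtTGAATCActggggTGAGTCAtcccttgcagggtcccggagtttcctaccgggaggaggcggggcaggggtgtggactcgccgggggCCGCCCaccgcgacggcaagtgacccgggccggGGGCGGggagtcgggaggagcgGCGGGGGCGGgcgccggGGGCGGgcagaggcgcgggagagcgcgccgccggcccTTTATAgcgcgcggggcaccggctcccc
TFPI: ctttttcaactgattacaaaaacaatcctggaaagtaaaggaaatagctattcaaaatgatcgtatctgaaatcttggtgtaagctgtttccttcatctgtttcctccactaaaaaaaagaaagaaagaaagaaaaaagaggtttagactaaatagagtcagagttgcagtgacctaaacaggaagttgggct
TFPI2: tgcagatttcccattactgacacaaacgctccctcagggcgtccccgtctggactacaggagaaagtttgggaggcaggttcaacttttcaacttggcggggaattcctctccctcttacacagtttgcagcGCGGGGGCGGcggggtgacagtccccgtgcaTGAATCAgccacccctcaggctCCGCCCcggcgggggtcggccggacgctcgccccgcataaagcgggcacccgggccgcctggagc

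In the F3 stretch TGAATCA began 223 bases and TGAGTCA 210 bases before the start, a pair of AP-1 matches, with a TATA box 28 bases before it, 1 EGR match and 4 GC boxes. In the TFPI2 stretch TGAATCA began 87 bases before the start, with 1 EGR match and 2 GC boxes. The TFPI stretch held none of the 5 motifs. Of F3 and TFPI2, F3 alone passed the main edgeR test, and TFPI2 was called by DESeq2 alone. The AP-1 letters also stood before genes that were called in no setting. TGAGTCA began 186 bases before the start of PLAUR, which had an EGR match as well. TGAATCA began 102 bases before the RefSeq start of SERPINB2, which had a TATA box 30 bases before it. Those 250 bases of SERPINB2 lie inside the gene as the deposited table places it. Over all 35116 promoters of the reference table, 6.57% held the AP-1 letters in their 250 bases, 11.9% the TEAD letters, 10.7% the TATA box, 42.6% the GC box and 8.41% the EGR letters. Base composition differed as well: the 250 bases held 34 CpG in F3, 20 in TFPI2 and 2 in TFPI, against a median of 11. GC content was 78% in F3, 64.4% in TFPI2 and 38.4% in TFPI, against a median of 58%. These matches describe letters in the window, and no binding was measured. Any part of the letters in the calls was not tested.

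Ratios within a library were set side by side for 5 pairs of these genes, with an exact two-sided permutation test on the log2 ratio of FPKM, where 3 against 3 libraries cannot go below p = 0.1. PLAU was 33.0, 30.9 and 28.4 times PLAT in SIGLEC15 siRNA replicates 1, 2 and 3, and 22.6, 21.4 and 24.8 times in control siRNA replicates 1, 2 and 3. These ratios did not overlap between the groups, and the difference of 0.43 on the log2 scale reached the smallest possible exact p (p = 0.1, 0.5 adjusted over the 5 ratios). The F3 to TFPI ratio was 2.84, 3.34 and 2.64 in SIGLEC15 siRNA replicates 1, 2 and 3, and 2.60, 2.68 and 2.45 in control siRNA replicates 1, 2 and 3. These overlapped (difference 0.18, exact p = 0.2, 0.5 adjusted), so a shift of tissue factor against its inhibitor was not shown. The difference was 0.089 without SIGLEC15 siRNA replicate 2 (exact p = 0.3). It reached the smallest possible exact p with 1 FPKM added to both genes (0.21, p = 0.1) and was 0.26 without SIGLEC15 siRNA replicate 3 (exact p = 0.1).

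The ratio of PLAU to its receptor PLAUR lay between 6.32 and 6.43 in the SIGLEC15 siRNA group and between 5.96 and 7.16 in the control siRNA group (difference -0.01, exact p = 1, 1 adjusted). For PLAU to SERPINE2 the difference was -0.10 and for TFPI2 to TFPI 0.24, and both pairs overlapped between the groups (exact p = 0.5, 0.625 adjusted, in each). The TFPI2 to TFPI difference depended on single libraries, from 0.079 without SIGLEC15 siRNA replicate 2 to 0.48 without control siRNA replicate 3.

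**Figure D4:**
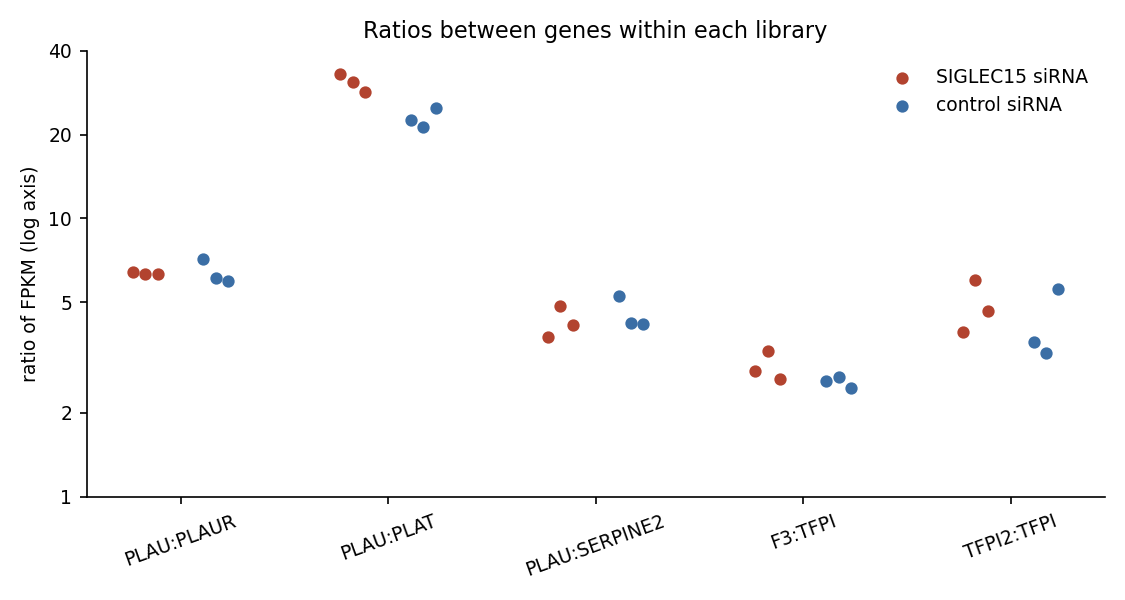
Ratio of the FPKM of 2 genes within each library, on a log axis, with 1 point per library, SIGLEC15 siRNA in red and control siRNA in blue. PLAU:PLAT is higher in all 3 SIGLEC15 siRNA libraries than in any control siRNA library; PLAU:PLAUR, PLAU:SERPINE2, F3:TFPI and TFPI2:TFPI overlap between the groups.

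Clotting factors, thrombin receptors and the protein C pathway were read from a list of 29 genes, all in the table. Of the 16 that entered the test 0 passed with edgeR, against 2 with DESeq2 and 3 at an unadjusted edgeR p under 0.05. These are no more than the shares of 17.1% of genes with a DESeq2 adjusted p and 19.1% of all tested genes give. The median log2 fold change was 0.03. ANXA5, a phospholipid-binding protein that can shield membranes from clotting factors, had 119 ± 2.89 FPKM in the SIGLEC15 siRNA group and 125 ± 1.44 FPKM in the control siRNA group (SD, n = 3 each; edgeR adjusted p = 0.535). F2RL1, the protease-activated receptor PAR2, which tissue factor with factor VII can cleave, had 68.2 ± 4.69 FPKM in the SIGLEC15 siRNA group and 66.5 ± 6.19 FPKM in the control siRNA group (SD, n = 3 each; edgeR adjusted p = 0.864). MCFD2, a cargo receptor subunit for secretion of factors V and VIII, had 58.4 ± 4.53 FPKM in the SIGLEC15 siRNA group and 57.2 ± 7.53 FPKM in the control siRNA group (SD, n = 3 each; edgeR adjusted p = 0.92). The 2 genes that DESeq2 called, both as higher and named after their values were seen, were the thrombin receptor F2R and F2RL2, with edgeR log2 fold changes of 0.26 (adjusted p = 0.114) and 0.89 (adjusted p = 0.151).

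**Figure D5:**
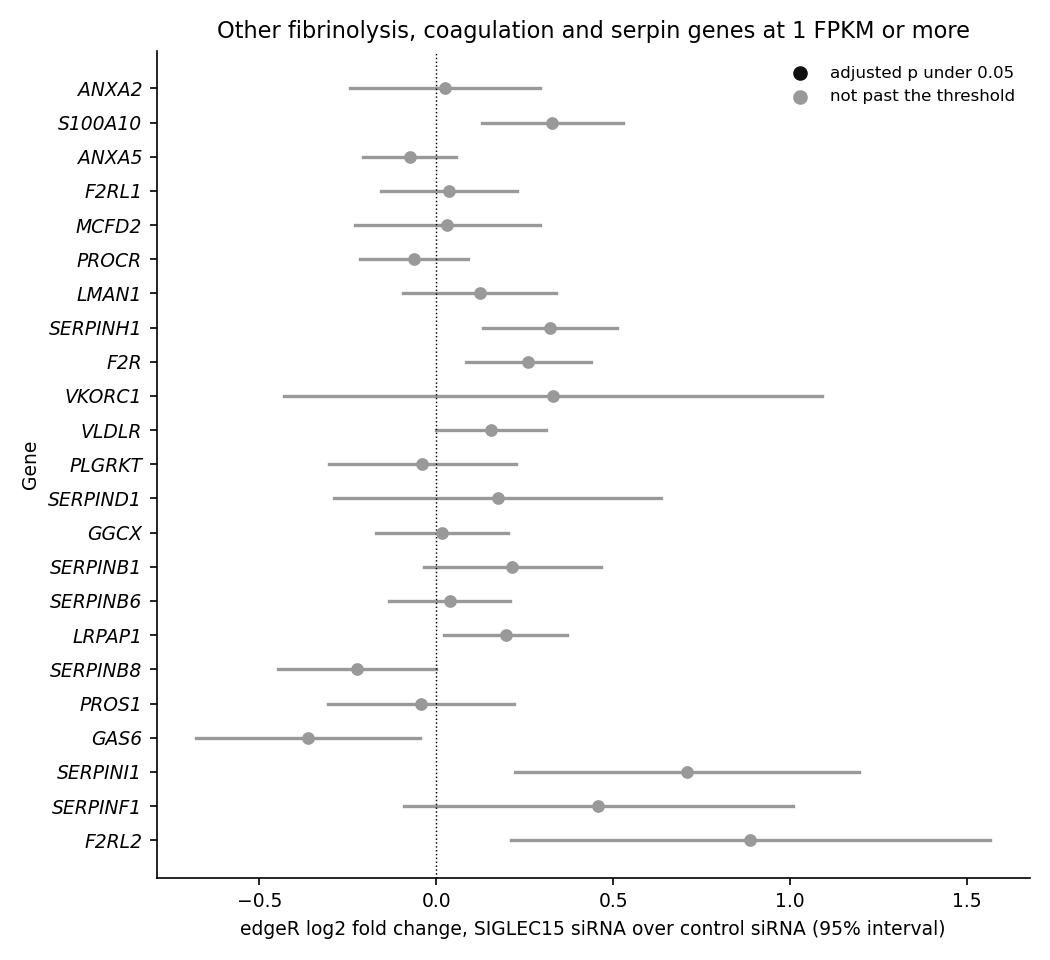
edgeR log2 fold change, SIGLEC15 siRNA over control siRNA, with the 95% interval, for the 23 tested genes of the fibrinolysis, coagulation and serpin lists with a mean of at least 1 FPKM in either group, in order of control level. All points are grey, since 0 of these genes passed an adjusted p of 0.05. The points run between GAS6 at the low end and F2RL2 at the high end. F2RL2, SERPINI1 and SERPINF1 reached 1 FPKM in the SIGLEC15 siRNA group alone, so the high end depends on this rule.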

How the data were processed

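Per the file headers, the authors deposited whole-number counts and FPKM values per gene for 6 poly(A) RNA-seq libraries. HISAT, StringTie and edgeR are listed without versions in the submitters' processing notes. No source used here gives the aligned build or the counting rule. 0 columns were left without a sample. The members and lists were chosen with earlier results of these data known.

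The test was edgeR 4.0.16 under R 4.3.3 (filterByExpr with minimum count 10 and minimum total 15, TMM scaling, quasi-likelihood F test over 6 libraries, no covariate), with Benjamini-Hochberg adjustment over 18910 genes and 0.05 as threshold. SE is the log2 fold change over the square root of F. Libraries held 57966691 to 67655254 counts. No libraries were duplicates: the chi-square per degree of freedom was at least 51.28. Alternatives were DESeq2 1.42.0, limma-trend (limma 3.58.1), other scaling and filters, the replicate block and left-out libraries. The edgeR, DESeq2 and limma tests were tested on simulated data. Genes named are the 9 members, SIGLEC15, the called and the 3 most abundant genes of each list, and the 2 called genes closest to a called member; others are genes called by an alternative. 1 gene of the lists is not reported here and is left out of their counts. Promoters come from RefSeq (GRCh38.p14), where 7 of the 9 members matched. The table's F3 and TFPI2 starts are the RefSeq starts.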

Additional observations from a re-analysis of the deposited data

How the results depend on the processing

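The count of changed genes was 879, and 2916 with DESeq2, 50 with the replicate number as a block, 260 to 431 without each library in turn, and 70 without SIGLEC15 siRNA replicate 1 and control siRNA replicate 3 together, a setting added after seeing the data. Of the 9 genes 1 was called (1 higher, 0 lower), beside 4.65% of all tested genes. DESeq2 called 4 (3 higher, 1 lower), beside 17.1% of the genes to which it gave an adjusted p. With edgeR over genes of at least 1 FPKM 3 were called (2 higher, 1 lower), beside 8.54% of the genes tested. Limma-trend called 2 (1 higher, 1 lower) with 1 or 0.1 added, beside 7.99% and 7.9%. 0 were called with no filter, under the block, without any 1 library (range 0 to 0, 0 to 0 higher) or without both libraries. Those settings called 2.18%, 0.264%, 1.33% to 2.2% and 0.368% of their genes. THBD and SERPINB2 were not tested at a mean of at least 1 FPKM. Beside the same shares, 0 of the other fibrinolysis genes were called, 3 with DESeq2 and 1 with limma-trend under either pseudocount. Of other serpins and of coagulation genes 0 were called, and with DESeq2 2 of each, with SERPINI1 counted among the fibrinolysis genes as well. The cause was not tested, except that the left-out settings use fewer samples.

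The direction turned for PLAU, PLAUR, SERPINE2 and the ratios of PLAU to PLAUR and to SERPINE2 alone. The log2 fold change of PLAU was -0.00021 and -0.0045 without control siRNA replicates 1 and 2, -0.034 without SIGLEC15 siRNA replicate 1, and -0.016 without both libraries; without each library it ran up to 0.031. That of PLAUR was -0.075 without control siRNA replicate 1 and -0.025 without SIGLEC15 siRNA replicate 1, and that of SERPINE2 was -0.021 without SIGLEC15 siRNA replicate 1, with highest values of 0.070 and 0.23 over left-out libraries. Without control siRNA replicate 1 the log2 ratio difference was 0.074 for PLAU to PLAUR (exact p = 0.1) and 0.0044 for PLAU to SERPINE2. The lowest values over left-out libraries were -0.057 and -0.20. All PLAU to PLAUR ratios with the SIGLEC15 siRNA lay above those of control siRNA replicates 2 and 3 (6.12 and 5.96), so this overlap rested on control siRNA replicate 1. Deviations from the group mean did not correlate between libraries of one number (r = -0.0489, 0.0111 and -0.0626 for pairs 1, 2 and 3), so the block rests on shared numbers alone. SERPINB2 rests on 22 to 39 counts per library.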
